A study of Mus musculus with 12 samples.

Results

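The genes described here are 10 components of the Notch pathway, namely the ligands *Dll1*, *Dll3*, *Jag1* and *Jag2*, the receptors *Notch1*, *Notch2* and *Notch3*, and the target genes *Hes1*, *Hes5* and *Hey1*. They were found by symbol among the 46477 genes of a table of RNA-seq read counts, and all 10 were present. The set was chosen by the measured values of *Dll1*, which had one of the largest genotype differences in its response to priming. For that reason *Dll1* is described without a test in every comparison, and the genotype difference in that response is described without a test for all 10 genes. The other 9 genes were tested in the 4 comparisons of 2 groups, although they too were listed with results of these data known.

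The cells were C57BL/6 mouse embryonic stem cells (ESCs) derived at E3.5 from MTCH2 F/F mice, which carry floxed alleles of *Mtch2*, a gene for a protein of the outer mitochondrial membrane. MTCH2-/- cells were the same ESCs after treatment with recombinant TAT-Cre protein, whereas the MTCH2 F/F cells were left untreated, so that exposure to Cre and deletion of *Mtch2* cannot be told apart. Both genotypes were sequenced as naïve ESCs in 2i/L (LIF with the MEK inhibitor PD0325901 and the GSK3 inhibitor CHIR99021 in N2B27) and as epiblast-like cells (EpiLCs) after 2 days of priming in Activin A and FGF2 with 1% KSR. Stocks of the ESCs had been grown on irradiated fibroblast feeders. Each of the 4 groups had 3 libraries, numbered 1 to 3 in the labels, and the study compared them to follow the exit from naïve pluripotency with and without MTCH2.

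In Notch signaling, a ligand on one cell binds a receptor on its neighbor, the receptor is cut by ADAM proteases and by γ-secretase, and its intracellular domain joins the DNA-binding protein RBPJ and a Mastermind coactivator in the nucleus to switch on genes of the *Hes* and *Hey* families. A ligand can also block receptors in its own cell, and mouse *Dll3* is known for that role rather than for activating neighbors. In naïve ESCs the pathway is known to be dispensable for self-renewal, and Notch signaling is known for promoting neural commitment when ESCs differentiate. Cleavage of the receptors is a protein event, so mRNA levels of receptors and ligands are not a measure of pathway activity.

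The libraries held 17453328 to 24068523 counted reads. Levels are given as CPM, reads scaled to a library of a common size with TMM factors. *Mtch2*, the targeted gene, was at 172.5 to 182.8 CPM in MTCH2 F/F ESCs, at 122.0 to 123.1 CPM in MTCH2 F/F EpiLCs and at 1.52 to 2.19 CPM in the 6 MTCH2-/- libraries. Library 1 of each MTCH2-/- group stood apart from libraries 2 and 3 of its group, with a chi-square per degree of freedom of 11.3 to 14.8 against 6.25 to 6.94 between the other 2. The summed level of 11 naïve pluripotency markers was 5544 to 6044 CPM in ESCs and 387 to 718 CPM in EpiLCs of MTCH2 F/F cells, and 4725 to 5257 CPM in ESCs and 2548 to 2674 CPM in EpiLCs of MTCH2-/- cells. For 7 formative and primed markers the sums were 95.7 to 113, 2949 to 3588, 120 to 137 and 680 to 878 CPM, in the same order. These sums fit the labels ESC and EpiLC within each genotype, and those of the MTCH2-/- EpiLCs lay between the sums of MTCH2 F/F ESCs and EpiLCs. Single naïve markers did not all follow the sums. By the edgeR test used below, 11 of 11 fell upon priming of MTCH2 F/F cells, against 32.1% of all genes. In MTCH2-/- cells 7 of 11 fell and 0 rose, against 22.2% and 20.0% of all genes. *Klf5* was at a mean of 144 CPM in MTCH2-/- ESCs and 176 in MTCH2-/- EpiLCs.

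Sequences upstream of the start site are shown for the gene that led to the choice of the set, *Dll1*, and for *Hes5*, whose window was the only one of the 9 searched with the core of the RBPJ motif. RefSeq windows of GRCm38.p6, each covering the 250 bases before a start site, were matched for 8 of the 10 genes (not for *Hes1* and *Hey1*), with 9 windows in all because *Dll1* has 2 start sites. The *Hes5* window lies on the plus strand at chr4:154960673-154960922, and capitals mark the RBPJ core TGGGAA or its reverse complement TTCCCA. The *Dll1* window, of the start site farther upstream, lies on the minus strand at chr17:15376933-15377182, and capitals mark E boxes, CANNTG, the motif of basic helix-loop-helix factors.
*Hes5*: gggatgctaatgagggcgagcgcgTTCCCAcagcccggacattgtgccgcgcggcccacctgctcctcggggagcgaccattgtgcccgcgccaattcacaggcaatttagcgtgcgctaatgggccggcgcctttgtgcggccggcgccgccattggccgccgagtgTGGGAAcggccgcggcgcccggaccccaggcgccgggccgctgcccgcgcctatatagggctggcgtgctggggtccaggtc
*Dll1*: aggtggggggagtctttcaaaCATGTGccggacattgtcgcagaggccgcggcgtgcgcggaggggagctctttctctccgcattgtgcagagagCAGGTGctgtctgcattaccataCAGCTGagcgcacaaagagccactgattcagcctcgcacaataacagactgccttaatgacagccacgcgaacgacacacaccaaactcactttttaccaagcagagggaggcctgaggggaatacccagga
The 2 RBPJ cores of *Hes5* begin 226 and 82 bases before the start and face in opposite directions. Of all 32817 RefSeq windows of this length, 21.6% held at least 1 RBPJ core on either strand and 2.77% held at least 2. The printed *Dll1* window held 3 E boxes, which begin 229, 155 and 132 bases before the start, and no RBPJ core. The other *Dll1* window held 1 E box, 220 bases before its start, and no RBPJ core. At least 1 E box was found in 5 of the 9 windows against 66.2% of all windows, and at least 3 in 12.2% of all windows. The TCF/LEF core CTTTGA or its reverse complement TCAAAG was in 0 of the 9 windows and in 13.8% of all windows. Matches of different motifs may share bases, and a match is a run of letters, not a measured binding site.

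*Dll1* encodes a ligand that activates receptors on neighboring cells. Its gene lies on the minus strand of chromosome 17 at 15367354 to 15376872 (GRCm38). In MTCH2 F/F ESCs *Dll1* was at 0.744, 0.293 and 0.644 CPM in libraries 1, 2 and 3, and in MTCH2 F/F EpiLCs at 72.8, 85.05 and 98.4 CPM. In MTCH2-/- ESCs it was at 9.85, 8.10 and 8.52 CPM, and in MTCH2-/- EpiLCs at 21.9, 25.7 and 30.4 CPM. The groups thus followed the order MTCH2 F/F EpiLCs, MTCH2-/- EpiLCs, MTCH2-/- ESCs and MTCH2 F/F ESCs, and no library of one group reached the range of the next. The level in MTCH2-/- cells was therefore above that of MTCH2 F/F cells before priming and below it after priming.

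With these values, *Dll1* was 151-fold higher in EpiLCs than in ESCs among MTCH2 F/F cells (log2 fold change 7.24, SE 0.218) and 2.94-fold higher among MTCH2-/- cells (1.55, SE 0.150). Between genotypes it was 15.7-fold higher in MTCH2-/- ESCs (3.97, SE 0.253) and 3.29-fold lower in MTCH2-/- EpiLCs (-1.72, SE 0.136). The large fold in MTCH2 F/F cells rests on a low starting level, since the MTCH2 F/F ESC libraries held 6 to 15 *Dll1* reads against 1334 to 1754 in MTCH2 F/F EpiLCs. The response of MTCH2-/- cells was smaller by 5.69 log2 units (log2 difference -5.69, SE 0.284), the value through which the set was chosen. It was the 5th most negative among 17369 genes tested and the most negative among the 10074 whose mean was at least 10 CPM. Taken by library number on the log2(CPM + 1) scale, the difference was -4.32, -4.50 and -4.20. In the bulk RNA of these samples, a smaller share of cells with *Dll1* and less *Dll1* RNA per cell cannot be told apart, which holds for every gene below.

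*Dll1* shares 867 exonic bases with *A930024N18Rik*, a noncoding gene on the opposite strand, and the printed window lies in an exon of that gene. Whether reads were counted by strand, and how reads in shared bases were assigned, is not stated in the sources used here. *A930024N18Rik* itself was at a mean of 0.249 CPM in MTCH2 F/F EpiLCs and of 0.0163 to 0.0336 CPM in the other groups. Such counts of an overlapping gene, here and for the genes below, do not show how far the overlap affects the values. The summed level of 8 neural markers was 51.5 to 72.8 CPM in ESCs and 144 to 192 CPM in EpiLCs of MTCH2 F/F cells, and 103 to 108 CPM in ESCs and 113 to 151 CPM in EpiLCs of MTCH2-/- cells. Of these sums most came from *Nes*, *Tubb3* and *Sox1*, while the neuronal fate factors *Neurog1* and *Neurog2* stayed under 1 CPM in every group mean. The part of neural cells in the *Dll1* values was not tested.

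**Figure D1:**
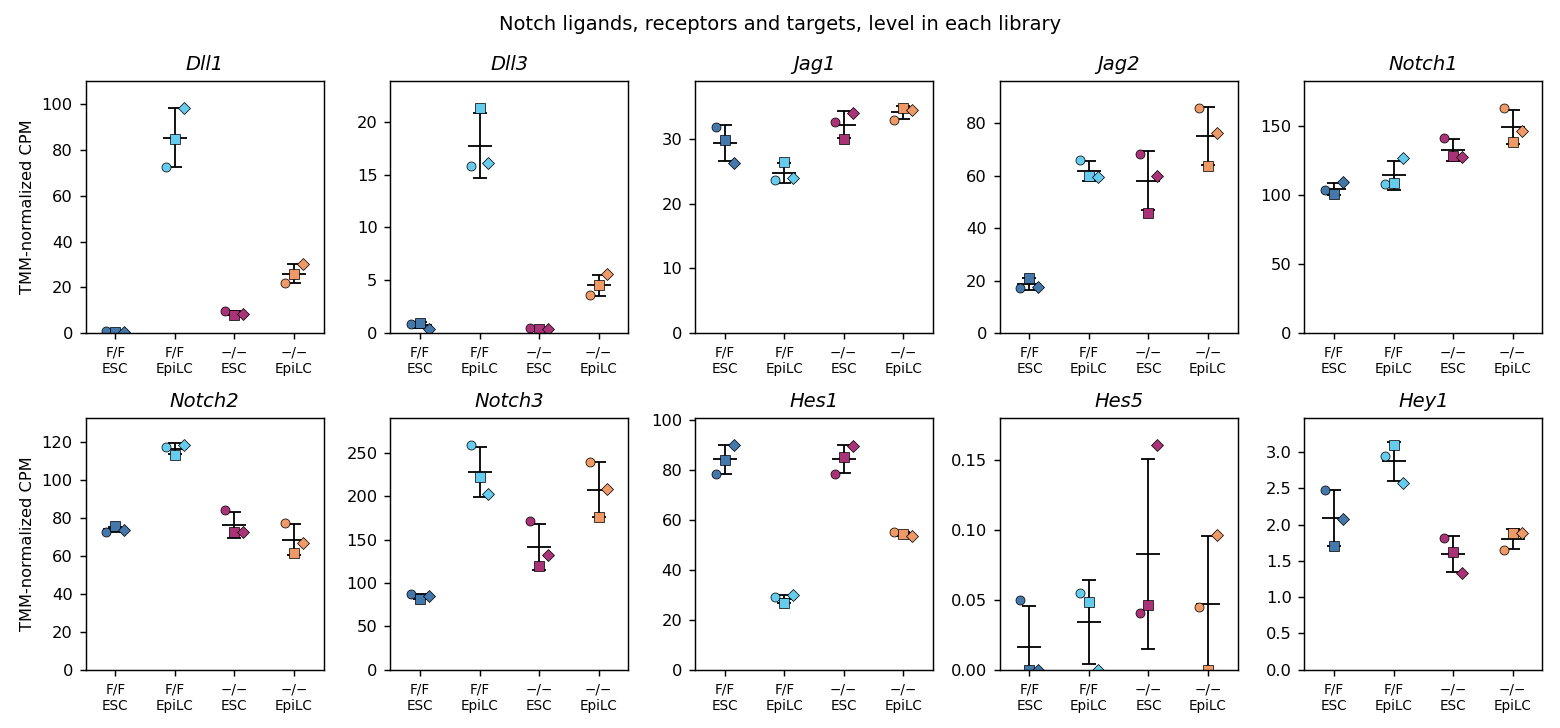
Levels of the 10 Notch genes in CPM (y axes, from 0, a separate scale for each gene) in the 4 groups. Circles, squares and diamonds are libraries 1, 2 and 3, and lines are the mean and SD of 3 libraries, cut at 0. For *Dll1*, all MTCH2-/- ESC libraries lie above the MTCH2 F/F ESC libraries, and all MTCH2-/- EpiLC libraries, at 21.9 to 30.4 CPM, lie below the MTCH2 F/F EpiLC libraries, at 72.8 to 98.4 CPM.

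*Dll3*, on chromosome 7, was low in ESCs of both genotypes and rose upon priming in both. In ESCs it was at 0.844, 0.976 and 0.396 CPM in MTCH2 F/F and at 0.446, 0.372 and 0.375 CPM in MTCH2-/- libraries. EpiLCs held 15.8, 21.3 and 16.1 CPM in MTCH2 F/F and 3.56, 4.51 and 5.55 CPM in MTCH2-/- libraries. The ESC groups overlapped, whereas every EpiLC library of one genotype was apart from those of the other and from all ESC libraries. *Dll3* rose 23.8-fold in MTCH2 F/F cells (log2 fold change 4.57, SE 0.247, adjusted p = 1.59e-10, quasi-likelihood test of edgeR, adjusted after Benjamini-Hochberg over all genes tested, as for every adjusted p below). It rose 11.2-fold in MTCH2-/- cells (3.48, SE 0.292, adjusted p = 1.49e-07) and was 3.91-fold lower in MTCH2-/- EpiLCs than in those of MTCH2 F/F cells (-1.97, SE 0.195, adjusted p = 4.15e-07). In ESCs the value was -0.87 (SE 0.385, adjusted p = 0.0779), and it passed the test without a filter on low counts (adjusted p = 0.0392) and without MTCH2 F/F ESC library 3 (adjusted p = 0.0176). *Dll3* met the filter on low counts in 3 of 3 libraries of each EpiLC group, in 2 of 3 of MTCH2 F/F ESCs and in 0 of 3 of MTCH2-/- ESCs. It was thus tested because it is high in EpiLCs, and its adjusted p-values for priming are not independent of that. Without the filter the log2 fold changes upon priming were 4.58 and 3.48, both past the test.

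*Jag2*, on chromosome 12, encodes a ligand of the Jagged type. In ESCs it was at 17.2, 21.1 and 17.5 CPM in MTCH2 F/F and at 68.1, 45.8 and 60.0 CPM in MTCH2-/- libraries. After priming it was at 66.1, 59.8 and 59.5 CPM in MTCH2 F/F and at 85.7, 63.6 and 76.1 CPM in MTCH2-/- libraries. The MTCH2 F/F ESC libraries lay below all others, and the other 3 groups overlapped in part. *Jag2* rose 3.32-fold upon priming of MTCH2 F/F cells (log2 fold change 1.73, SE 0.144, adjusted p = 1.02e-07) and was 3.12-fold higher in MTCH2-/- than in MTCH2 F/F ESCs (1.64, SE 0.144, adjusted p = 1.37e-06). In MTCH2-/- cells priming raised it by 0.37 on the log2 scale (SE 0.134, adjusted p = 0.0362), a call that was lost without MTCH2-/- ESC library 2 (adjusted p = 0.133) or 3 (0.0602) and without MTCH2-/- EpiLC library 1 (0.144) or 3 (0.0832). Between genotypes in EpiLCs the value was 0.28 (SE 0.134, adjusted p = 0.0799), which passed the test without MTCH2-/- ESC library 1 (adjusted p = 0.045) or 2 (0.0264) or MTCH2-/- EpiLC library 2 (0.0227). The sum of fibroblast markers, which would report feeder cells, was 14.6 to 17.8 CPM in MTCH2 F/F ESCs. It was 20.7 to 36.5 CPM in MTCH2-/- ESCs, where 6 of 8 tested markers were higher, against 23.3% of all genes. In EpiLCs the sums were 31.5 to 34.4 CPM in MTCH2 F/F and 28.0 to 38.2 CPM in MTCH2-/- cells. *Thy1* held a mean of 21.6 and 10.9 CPM of these EpiLC sums. *Col1a1*, a collagen of fibroblasts and other cells, was at a mean of 6.52 CPM in MTCH2 F/F ESCs and 11.1 in MTCH2-/- ESCs. The part of feeder cells in the *Jag2* values was not tested.

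*Jag1*, on chromosome 2, encodes the second Jagged ligand and varied least among the genes tested, with its highest library at 1.47 times its lowest. In ESCs it was at 31.9, 29.9 and 26.3 CPM in MTCH2 F/F and at 32.6, 30.0 and 34.1 CPM in MTCH2-/- libraries. In EpiLCs it was at 23.6, 26.5 and 24.0 CPM in MTCH2 F/F and at 33.0, 34.8 and 34.5 CPM in MTCH2-/- libraries. Each group overlapped its neighbor in the order of levels, but the EpiLC groups did not overlap each other, and *Jag1* was higher in MTCH2-/- EpiLCs (log2 fold change 0.46, SE 0.0863, adjusted p = 0.000231). It fell by 0.25 on the log2 scale upon priming of MTCH2 F/F cells (SE 0.0868, adjusted p = 0.0197), and this call was lost without MTCH2 F/F ESC library 1 (adjusted p = 0.0938) or 2 (0.0585) and without MTCH2 F/F EpiLC library 1 (0.0755) or 3 (0.0591). The values for priming of MTCH2-/- cells, 0.08 (SE 0.0847, adjusted p = 0.466), and for genotype in ESCs, 0.13 (SE 0.0853, adjusted p = 0.223), did not pass the test.

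Of the 3 receptors in the set, *Notch3*, on chromosome 17, had the widest range of levels. In ESCs it was at 87.0, 81.6 and 85.5 CPM in MTCH2 F/F and at 171.1, 120.1 and 132.2 CPM in MTCH2-/- libraries. The EpiLC values were 259.5, 222.3 and 202.5 CPM in MTCH2 F/F and 239.4, 176.1 and 207.9 CPM in MTCH2-/- libraries. The EpiLC groups overlapped and lay above both ESC groups, and all MTCH2-/- ESC libraries were above the MTCH2 F/F ESC libraries. *Notch3* rose upon priming of MTCH2 F/F cells (log2 fold change 1.43, SE 0.138, adjusted p = 8.67e-07) and of MTCH2-/- cells (0.56, SE 0.134, adjusted p = 0.0047), and was higher in MTCH2-/- than in MTCH2 F/F ESCs (0.74, SE 0.137, adjusted p = 0.000822). In EpiLCs the value was -0.13 (SE 0.134, adjusted p = 0.402). *Notch3* shares 488 exonic bases with *Gm17276* on the opposite strand, which was at 0.346 to 0.376 CPM in the group means.

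*Notch2*, on chromosome 3, was at 72.7, 75.4 and 73.6 CPM in MTCH2 F/F ESCs and at 117.4, 113.2 and 118.4 CPM in MTCH2 F/F EpiLCs. In MTCH2-/- cells it was at 83.9, 72.5 and 72.3 CPM in ESCs and at 77.2, 61.5 and 66.8 CPM in EpiLCs. The MTCH2 F/F EpiLC libraries stood above all others, and the remaining groups overlapped. *Notch2* rose upon priming of MTCH2 F/F cells (log2 fold change 0.65, SE 0.0797, adjusted p = 2.39e-06) and was lower in MTCH2-/- EpiLCs than in those of MTCH2 F/F cells (-0.76, SE 0.0799, adjusted p = 7.68e-07). For priming of MTCH2-/- cells the value was -0.15 (SE 0.0801, adjusted p = 0.138), which passed the test without MTCH2-/- EpiLC library 1 (-0.25, adjusted p = 0.015). Between genotypes in ESCs it was 0.05 (SE 0.0799, adjusted p = 0.677). *Notch2* shares 541 exonic bases with *Gm42820* on the same strand, a symbol that was not found among the genes counted.

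*Notch1*, on chromosome 2, was higher in MTCH2-/- cells in both media. In ESCs it was at 103.4, 100.7 and 109.5 CPM in MTCH2 F/F and at 141.5, 128.3 and 127.9 CPM in MTCH2-/- libraries. In EpiLCs it was at 107.7, 108.6 and 126.7 CPM in MTCH2 F/F and at 163.1, 138.3 and 146.8 CPM in MTCH2-/- libraries. In each medium the genotypes did not overlap. The log2 fold change between them was 0.34 in naïve cells (SE 0.0776, adjusted p = 0.00218) and 0.39 in primed cells (SE 0.0776, adjusted p = 0.000441). Priming gave 0.13 in MTCH2 F/F cells (SE 0.078, adjusted p = 0.163) and 0.17 in MTCH2-/- cells (SE 0.0771, adjusted p = 0.0848). With the library number as a block the latter passed the test (0.17, adjusted p = 0.0419), as it did without MTCH2 F/F EpiLC library 3 (adjusted p = 0.0404), MTCH2-/- ESC library 1 (0.044) or MTCH2-/- EpiLC library 2 (0.0402). *Notch1* shares 1068 exonic bases with *0610009E02Rik* on the opposite strand, which was at 0.236 to 0.409 CPM in the group means.

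Among the targets, *Hes1*, on chromosome 16, encodes a transcriptional repressor that Notch induces and that other pathways can induce as well. It was at 78.5, 84.2 and 90.1 CPM in MTCH2 F/F ESCs and at 78.5, 85.1 and 89.7 CPM in MTCH2-/- ESCs. In EpiLCs it was at 29.0, 26.6 and 29.7 CPM in MTCH2 F/F and at 55.3, 54.5 and 53.7 CPM in MTCH2-/- libraries. The ESC groups covered the same range, and the MTCH2-/- EpiLC libraries lay between them and the MTCH2 F/F EpiLC libraries without overlap. *Hes1* fell 2.96-fold upon priming of MTCH2 F/F cells (log2 fold change -1.57, SE 0.0739, adjusted p = 3.27e-11) and 1.55-fold in MTCH2-/- cells (-0.63, SE 0.0706, adjusted p = 3.15e-06). It was 1.92-fold higher in MTCH2-/- EpiLCs than in those of MTCH2 F/F cells (0.94, SE 0.0741, adjusted p = 3.87e-08). In ESCs the value was 0.0015 (SE 0.0696, adjusted p = 0.989), with a sign that changed under RLE scaling, without a filter on low counts, with DESeq2 and without single libraries.

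*Hey1*, on chromosome 3, encodes a related repressor and was much lower. In ESCs it was at 2.48, 1.71 and 2.08 CPM in MTCH2 F/F and at 1.82, 1.63 and 1.34 CPM in MTCH2-/- libraries. In EpiLCs it was at 2.95, 3.10 and 2.58 CPM in MTCH2 F/F and at 1.65, 1.89 and 1.88 CPM in MTCH2-/- libraries. The MTCH2 F/F EpiLC libraries were above all others, and *Hey1* was lower in MTCH2-/- EpiLCs than in those of MTCH2 F/F cells (log2 fold change -0.68, SE 0.199, adjusted p = 0.00771). Its rise upon priming of MTCH2 F/F cells (0.46, SE 0.196, adjusted p = 0.0485) stood just inside the threshold and was lost with DESeq2 (adjusted p = 0.121), without a filter on low counts (0.118) and without any one of 8 libraries, with an adjusted p of up to 0.193. The values for priming of MTCH2-/- cells, 0.16 (SE 0.208, adjusted p = 0.559), and for genotype in ESCs, -0.38 (SE 0.205, adjusted p = 0.152), did not pass the test.

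*Hes5*, a repressor that is a common readout of Notch in neural progenitors, was hardly detected in any group. The 12 libraries held 11 of its reads in all, at most 3 in a library and 0 in 4 libraries. A count of 3 reads corresponds to 0.122 to 0.176 CPM in these libraries, so that differences under this level were not detectable at this depth. *Hes5* was not tested, and no fold is given. It shares 433 exonic bases with *Gm20421* on the opposite strand, which had no reads. The 2 RBPJ cores printed above thus belong to the member with the fewest reads.

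CPM per kilobase of exons allows a rough comparison of levels between genes. The length used is that of the exons of all annotated transcripts together, 14232 bases for *Notch1* and 8089 for *Notch3*. It can exceed the length of the main mRNA, so the order of genes depends on it. On this scale *Hes1* was first in MTCH2 F/F ESCs with 41.4, followed by *Notch3* with 10.5, *Notch1* with 7.35, *Notch2* with 6.85 and *Jag1* with 5.04. *Dll3*, at 0.259, and *Dll1*, at 0.133, came near the end of that order, above only *Hes5*. In MTCH2 F/F EpiLCs the order began with *Notch3* at 28.2, *Dll1* at 20.3 and *Hes1* at 13.96 CPM per kilobase. In MTCH2-/- EpiLCs it began with *Hes1* at 26.8, *Notch3* at 25.7 and *Jag2* at 10.8, and *Dll1* stood at 6.16. The ligand with the highest level per kilobase was thus *Jag1* in MTCH2 F/F ESCs, *Dll1* in MTCH2 F/F EpiLCs and *Jag2* in both MTCH2-/- groups.

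Upon priming of MTCH2 F/F cells, 5 of the 8 tested genes other than *Dll1* rose (*Dll3*, *Jag2*, *Notch2*, *Notch3* and *Hey1*), 2 fell (*Jag1* and *Hes1*) and *Notch1* did not pass the test. *Dll3* is counted here and in MTCH2-/- cells although its high level in EpiLCs let it pass the filter, so its 2 calls add no support to these counts. Over all 17369 genes tested, 64.0% passed, 31.9% as higher and 32.1% as lower, so that a large share of any list changes in this comparison. At a change of at least 2-fold, 3 rose and 1 fell, with 13.2% and 14.2% of all genes. The libraries of the 2 groups did not overlap for 6 of the 8, against 71.5% of all genes. The median log2 fold change of the 8 genes was 0.56 and that of all genes -0.0092. Upon priming of MTCH2-/- cells, 3 of the 8 rose (*Dll3*, *Jag2* and *Notch3*), 1 fell (*Hes1*) and 4 did not pass, while 42.2% of all genes passed, 20.0% as higher and 22.2% as lower. At least 2-fold, 1 rose and 0 fell, with 5.97% and 5.99% of all genes, and the libraries did not overlap for 3 of the 8, against 48.2%. The medians were 0.17 for the 8 genes and -0.018 for all genes.

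**Figure D2:**
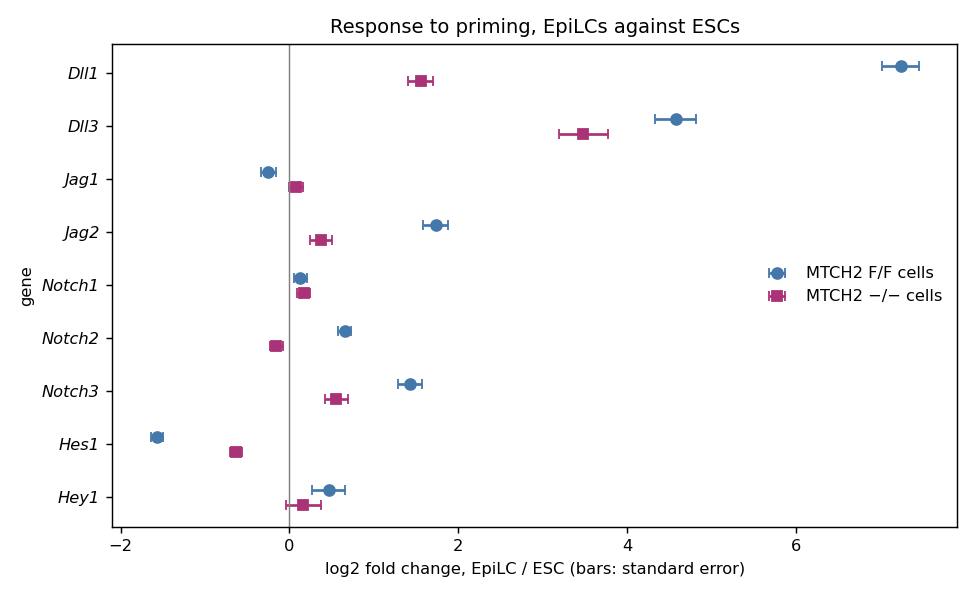
Log2 fold change upon priming (x axis, EpiLC over ESC) of the 9 Notch genes with a fit (y axis), in MTCH2 F/F cells (circles) and MTCH2-/- cells (squares). Bars are standard errors, and the values of *Dll1* are 7.24 and 1.55 while those of *Hes1* are -1.57 and -0.63.

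Between genotypes in ESCs, 3 of the 8 genes were higher in MTCH2-/- cells (*Jag2*, *Notch1* and *Notch3*), 5 did not pass and 0 were lower in the main edgeR fit or by DESeq2. In edgeR, *Dll3* passed as lower without a filter on low counts (adjusted p = 0.0392) and without MTCH2 F/F ESC library 3 (adjusted p = 0.0176). Of all genes 43.7% passed, 23.3% as higher and 20.4% as lower. Only *Jag2* was at least 2-fold higher, against 9.06% of all genes. The libraries did not overlap for 3 of the 8, against 54.7%, and the medians were 0.09 for the 8 genes and 0.0057 for all genes. Between genotypes in EpiLCs, 3 were higher in MTCH2-/- cells (*Jag1*, *Notch1* and *Hes1*), 3 were lower (*Dll3*, *Notch2* and *Hey1*) and 2 did not pass. Of all genes 62.5% passed, 32.3% as higher and 30.2% as lower. Only *Dll3* was at least 2-fold lower, against 7.03% of all genes. The libraries did not overlap for 6 of the 8, against 67.0%, and the medians were 0.07 and 0.022. Ligands, receptors and targets thus each held genes that were higher and genes that were lower in MTCH2-/- EpiLCs, when *Dll1*, at -1.72 without a test, is left aside.

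**Figure D3:**
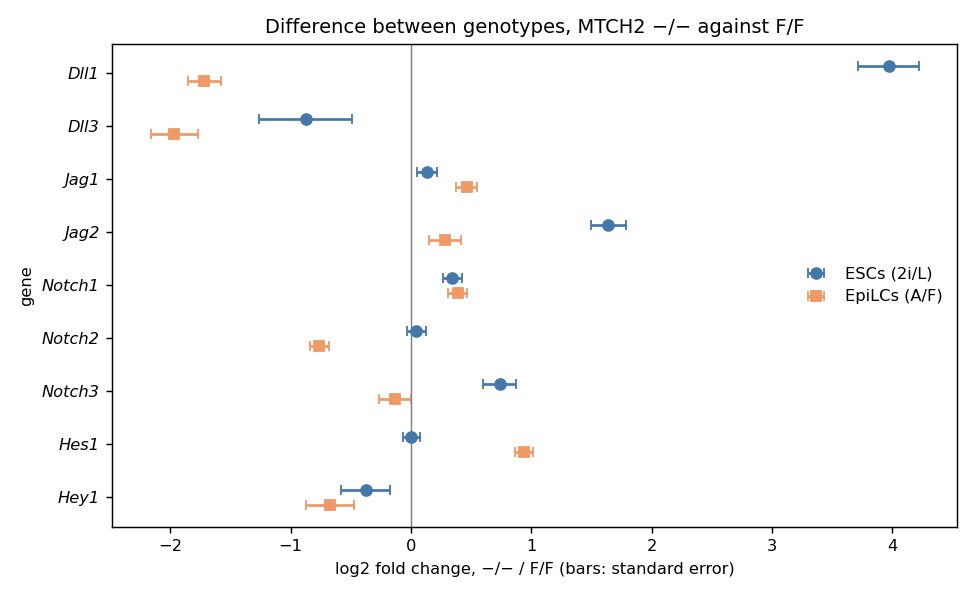
Log2 fold change between genotypes (x axis, MTCH2-/- over MTCH2 F/F) of the 9 Notch genes with a fit (y axis), in ESCs and in EpiLCs. Bars are standard errors, and *Dll1* lies at 3.97 in ESCs and at -1.72 in EpiLCs, on opposite sides of 0.

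The genotype difference in priming response is given as a description. Besides *Dll1* at -5.69 it was -1.36 for *Jag2* (SE 0.196), -1.09 for *Dll3* (SE 0.451), -0.87 for *Notch3* (SE 0.191) and -0.81 for *Notch2* (SE 0.113) on the log2 scale. It was 0.94 for *Hes1* (SE 0.102), 0.33 for *Jag1* (SE 0.121), 0.04 for *Notch1* (SE 0.110) and -0.30 for *Hey1* (SE 0.286). For *Hes1* the difference by library number on the log2(CPM + 1) scale was 0.91, 0.99 and 0.84, and for *Notch2* it was -0.80, -0.81 and -0.79. Of all genes, 35.0% passed the test of this difference, and as the set was chosen through it, nothing is read from the values of the members.

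The remaining pathway was described through 58 further genes, of which 53 were tested. Priming of MTCH2 F/F cells raised 14 and lowered 15 of them, and priming of MTCH2-/- cells raised 12 and lowered 12. Between genotypes, 16 were higher and 8 lower in MTCH2-/- ESCs, with 13 lower when the library number was a block, and 22 were higher and 12 lower in MTCH2-/- EpiLCs. The difference in the response to priming passed the test for 21 of the 53, 10 with a higher and 11 with a lower value in MTCH2-/- cells, and 2 and 9 of them by at least 2-fold, against 7.54% and 6.86% of all genes. The totals past the test, 29, 24, 24, 34 and 21 of 53, stand against 64.0%, 42.2%, 43.7%, 62.5% and 35.0% of all genes. Of all genes, 31.9%, 20.0%, 23.3%, 32.3% and 17.8% passed as higher, in the same order. As lower, 32.1%, 22.2%, 20.4%, 30.2% and 17.2% passed. Nothing about the pathway is read from these counts.

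*Hes6*, a relative of *Hes1* known to counteract it, was at 8.15 ± 0.341 CPM (SD, n = 3) in ESCs and 133.3 ± 8.05 in EpiLCs of MTCH2 F/F cells, and at 9.61 ± 0.887 in ESCs and 38.0 ± 3.23 in EpiLCs of MTCH2-/- cells. It rose upon priming of MTCH2 F/F cells (log2 fold change 4.03, SE 0.0928, adjusted p = 4.53e-14) and of MTCH2-/- cells (1.98, SE 0.0896, adjusted p = 1.79e-10), and the responses differed (-2.05, SE 0.127, adjusted p = 1.73e-08). *Dtx4*, for a Deltex ubiquitin ligase, rose by 3.87 and 1.93 on the log2 scale and also differed in its response (-1.94, SE 0.225, adjusted p = 8.93e-06). *Dlk1*, for a ligand-like protein without the domain that activates receptors, rose by 2.92 in MTCH2 F/F cells (SE 0.269, adjusted p = 9.21e-08) with a value of 0.69 in MTCH2-/- cells (adjusted p = 0.0587), and the difference was -2.23 (SE 0.399, adjusted p = 0.000465). *Maml3*, for a Mastermind coactivator, was lower in MTCH2-/- EpiLCs than in those of MTCH2 F/F cells (-1.78, SE 0.215, adjusted p = 3.43e-06).

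*Notch4*, the fourth receptor, moved the other way. It was at 23.8 ± 1.01 CPM (SD, n = 3) in ESCs and 2.94 ± 0.495 in EpiLCs of MTCH2 F/F cells, and at 11.8 ± 1.15 in ESCs and 15.1 ± 2.90 in EpiLCs of MTCH2-/- cells. It fell upon priming of MTCH2 F/F cells (log2 fold change -3.02, SE 0.157, adjusted p = 1e-10) and rose in MTCH2-/- cells (0.36, SE 0.135, adjusted p = 0.0422), a difference of 3.38 (SE 0.207, adjusted p = 1.55e-08). *Notch4* is known from endothelial cells, and the summed level of 5 endothelial markers was 203 to 216 CPM in ESCs and 54.0 to 79.9 CPM in EpiLCs of MTCH2 F/F cells, and 235 to 275 CPM in ESCs and 217 to 243 CPM in EpiLCs of MTCH2-/- cells. Of these, 3 were tested, and all 3 were higher in MTCH2-/- EpiLCs and in the difference in response, against 32.3% and 17.8% of all genes. The same held for all 11 naïve pluripotency markers, so these calls are not particular to endothelial markers. Most of the sums came from *Pecam1* and *Tek*, while *Cdh5*, which defines endothelial cells, was at 0 to 0.0647 CPM in the group means. *Pecam1* was at a mean of 173 CPM in ESCs and 32.7 in EpiLCs of MTCH2 F/F cells. In MTCH2-/- cells it was at 188 CPM in ESCs and 147 in EpiLCs. The part of endothelial cells in the *Notch4* values was not tested. *Maml2*, for another Mastermind coactivator, fell by 3.35 in MTCH2 F/F cells and by 0.83 in MTCH2-/- cells, and the responses differed (2.52, SE 0.227, adjusted p = 7.51e-07). *Spen*, for a corepressor that binds RBPJ, fell in MTCH2 F/F cells (-0.69, SE 0.0806, adjusted p = 1.37e-06) and rose in MTCH2-/- cells (0.26, SE 0.0797, adjusted p = 0.0159), with a difference of 0.95 (SE 0.113, adjusted p = 1.1e-05). *Dner*, for a ligand-like protein of neurons, fell by 3.55 and 2.22 in the 2 genotypes, with a difference of 1.33 that did not pass the test (adjusted p = 0.0603). Its MTCH2 F/F EpiLC libraries, at 0.109 to 0.388 CPM, all lay under the filter on low counts, so the fall of 3.55 rests on few reads there.

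*Rbpj*, the DNA-binding protein that all receptors share, rose in both genotypes. In MTCH2 F/F cells it went from 100.5 ± 4.97 to 199.2 ± 39.6 CPM (SD, n = 3), and in MTCH2-/- cells from 101.0 ± 5.15 to 198.9 ± 9.68 CPM. The log2 changes were 0.99 (SE 0.104, adjusted p = 7.05e-07) and 0.98 (SE 0.104, adjusted p = 2.61e-06), and their difference was -0.0086 (SE 0.146, adjusted p = 0.972). Other genes differed by genotype in ESCs. *Hey2*, a relative of *Hey1*, was higher in MTCH2-/- ESCs (1.24, SE 0.208, adjusted p = 0.000203) and EpiLCs (1.51, SE 0.218, adjusted p = 1.97e-05), in contrast to *Hey1*, which was lower in MTCH2-/- EpiLCs. *Dlk2*, a relative of *Dlk1*, was higher in MTCH2-/- ESCs (3.60, SE 0.438, adjusted p = 1.13e-05), from a mean of 0.148 CPM in MTCH2 F/F ESCs. All MTCH2 F/F libraries, at no more than 0.199 CPM in ESCs and 0.469 in EpiLCs, lay under the filter on low counts. *Dlk2* was thus tested because it is higher in MTCH2-/- cells, and its adjusted p-value for genotype is not independent of that. Of the γ-secretase subunit genes, 3 were higher in MTCH2-/- ESCs, namely *Aph1c* (1.66, SE 0.252, adjusted p = 8.32e-05), *Psen2* (1.14, SE 0.110, adjusted p = 1.31e-06) and *Ncstn* (0.41, SE 0.0566, adjusted p = 3.66e-05), of which *Psen2* and *Ncstn* were named after their values were seen. *Aph1c* fell upon priming of MTCH2-/- cells (-1.63, SE 0.251, adjusted p = 7.67e-05), and *Aph1b* also fell (-1.06, SE 0.223, adjusted p = 0.0012). *Dtx3l*, for another Deltex protein, was lower in MTCH2-/- ESCs (-0.76, SE 0.128, adjusted p = 0.000215).

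**Figure D4:**
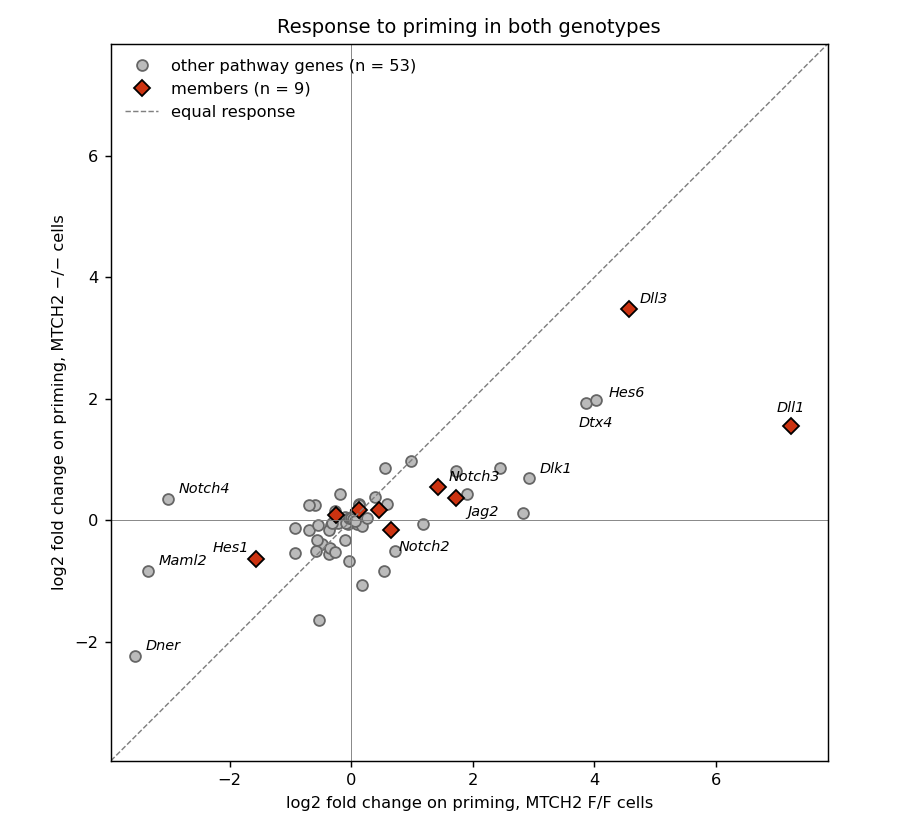
Log2 fold change upon priming in MTCH2 F/F cells (x axis) and in MTCH2-/- cells (y axis) of 9 Notch genes (diamonds) and 53 other pathway genes (circles), each point a gene, with the diagonal of equal response. *Dll1*, at 7.24 and 1.55, lies far below the diagonal, and *Notch4*, at -3.02 and 0.36, far above it.

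The 5 genes whose log2(CPM + 1) was most like that of *Dll1* over the 12 libraries, out of 9412 genes searched, were *Gadd45g* (Pearson's r = 0.996), *Trio* (0.993), *Efnb2* (0.991), *Foxh1* (0.990) and *Zfp644* (0.989). The libraries fall into 4 groups of 3, so these values mostly describe the order of 4 group means and carry no p. *Gadd45g*, a stress and growth arrest gene, was at a mean of 0.855 CPM in ESCs and 93.1 in EpiLCs of MTCH2 F/F cells, and at 7.68 in ESCs and 27.3 in EpiLCs of MTCH2-/- cells. *Efnb2*, which encodes the membrane ligand ephrin-B2, was at 11.0, 106.0, 30.4 and 65.2 CPM in the same order. *Foxh1*, which encodes a transcription factor of Nodal and Activin signaling, was at 34.1, 87.1, 51.3 and 68.3 CPM.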

How the data were processed

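Poly-A RNA of 12 samples was sequenced as single-end reads. Per the labels and the study's methods, the authors mapped reads to GRCm38 with TopHat2 (2.0.10) and assigned them to genes with HTSeq (0.6.1p1). The deposited counts are whole, unnormalized reads per gene, made by the authors. The 12 deposited columns of normalized values and the authors' own comparisons (log2 fold changes and adjusted p-values) were not used. The replicates are labelled as biological samples.

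Counts were fitted in R 4.3.3 with edgeR 4.0.16 (TMM scaling, filterByExpr by group, robust quasi-likelihood F test, 4 groups together, Benjamini-Hochberg adjustment over the 17369 of 46477 genes that passed the filter on low counts, near 0.483 CPM). Calls were made at an adjusted p under 0.05. Of the 10 members 9 passed the filter, *Dll1* and *Dll3* through the groups where they are high. The standard error is the size of the log2 fold change over the square root of F. DESeq2 1.42.0, RLE scaling, other filters, a replicate block and leaving out each of the 12 libraries were alternatives. The script was tested on simulated data. An exact two-sided test of 3 libraries against 3 cannot go below p = 0.1.

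The members and lists were chosen with earlier results of these data known. Named besides the members are, per contrast and direction, the 3 other pathway genes with the largest change that passed the test, had a mean of at least 1 CPM and showed no overlap between groups, and the 5 genes most like *Dll1* with a mean of at least 10 CPM predicted genes left aside. *Hes3*, *Hes7*, *Heyl*, *Helt* and *Rbpjl* were below the filter. Positions, exon lengths and overlaps are from GENCODE vM21 (the authors used another annotation), and promoter windows are from RefSeq.

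The titles give the same numbers to samples of each group. After group means were removed, libraries of the same number correlated in all 12 pairs (r = 0.107 to 0.471) and those of different numbers at -0.317 to 0.0067, so the numbers pair the samples.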

Additional observations from a re-analysis of the deposited data

Results flagged for a closer look

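Responses to priming that differed between genotypes are listed as MTCH2-/- minus MTCH2 F/F on the log2 scale, with no explanation. For *Notch2* the response was positive in every pair of MTCH2 F/F libraries and negative in every pair of MTCH2-/- libraries, with a difference of -0.81 that was not tested. For *Jag1* it was negative in every pair of MTCH2 F/F libraries and positive in every pair of MTCH2-/- libraries, with a difference of 0.33 that was not tested. The *Jag1* responses of MTCH2-/- cells were small, at 0.015, 0.208 and 0.020 on the log2(CPM + 1) scale. Priming of MTCH2-/- cells did not pass the test for *Jag1* or *Notch2*, so no reversal is shown. How many of all genes have opposite signs in every pair was not counted.

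Among the other pathway genes, edgeR's quasi-likelihood test found a difference for *Notch4* (3.38, adjusted p = 1.55e-08), *Maml2* (2.52, adjusted p = 7.51e-07) and *Spen* (0.95, adjusted p = 1.1e-05). It found a difference of the opposite sign for *Dlk1* (-2.23, adjusted p = 0.000465), *Hes6* (-2.05, adjusted p = 1.73e-08) and *Dtx4* (-1.94, adjusted p = 8.93e-06).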

How the results depend on the processing

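No total count of genes past the test moved by more than 1.5 times under any of the alternatives run. Leaving out 1 library at a time, the members other than *Dll1* past the test numbered 5 to 7 for priming of MTCH2 F/F cells, 3 to 5 for priming of MTCH2-/- cells, 3 to 4 for genotype in ESCs and 6 to 7 for genotype in EpiLCs. The other pathway genes numbered 27 to 30, 21 to 25, 20 to 26 and 30 to 36 in the same order, and 18 to 23 for the difference in response. With the replicate block, which rests on the pairing of the samples, the members numbered 7, 5, 3 and 6, and *Notch1* upon priming of MTCH2-/- cells was the only call among members that changed. The pathway genes lower in MTCH2-/- ESCs numbered 13 in place of 8. Under the stricter filter, at least 5 CPM in at least 3 libraries, fewer genes were tested, the pathway genes that rose upon priming of MTCH2 F/F cells numbered 9 in place of 14, and those with a lower response in MTCH2-/- cells 7 in place of 11. *Hey1* did not pass that filter.

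The sign of *Hes1* between genotypes in ESCs, 0.0015, changed to -0.019 with RLE scaling, -0.014 without a filter and -0.021 with DESeq2, and it ranged from -0.074 to 0.052 without single libraries. *Notch2* between genotypes in ESCs ranged from -0.030 to 0.081, and the *Notch1* difference in response from -0.021 to 0.13. The cause of the changes was not tested. With 3 libraries a group and 6 to 15 *Dll1* reads in MTCH2 F/F ESCs, the size of its fold change is set by few reads.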
